A study of Rattus norvegicus with 12 samples.

Results

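In vascular smooth muscle cells grown from the aortas of newborn rats, mRNA was measured before thrombin and 120 min after it was given. The series holds no untreated cells kept for the same 120 min, so thrombin and the time elapsed cannot be told apart. The experiment comprised 4 of the 12 one-colour Affymetrix arrays of the series: 2 arrays of cells exposed to thrombin at 2 U/ml and the 2 arrays that the sample titles assign to the basal state before thrombin. The members were chosen by those titles alone, and no measured value entered the choice. Both groups came from primary cultures kept in medium with fetal calf serum and then starved of serum overnight in medium with albumin; the basal cells received no agent. The remaining 8 arrays held the receptor-activating peptide TRAP at 25 µM for 120 min, TRAP after pertussis toxin at 200 ng/ml for 24 h, and the basal arrays of those 2 experiments. Whether the basal cells of the pertussis toxin experiment had received the toxin is not stated. Each of the 6 groups had 2 arrays, which the labels do not describe as separate cultures; every p-value therefore rests on the spread between single arrays, which may be technical.

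Thrombin is the serine protease that ends the coagulation cascade, and it acts on cells by cutting protease-activated receptors, which then signal through the Gq, G12/13 and Gi classes of G protein. In smooth muscle these pathways raise calcium, activate RhoA and the MAP kinases, and drive immediate-early genes through serum response factor (SRF), which binds the CArG box, and its ternary complex and MRTF cofactors. The first proteins to be made, among them the AP-1 and Egr transcription factors, then act on later genes, while phosphatases and other inhibitors damp the signal.

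The median signal was 39.7 to 40.6 on the 4 arrays. Pearson's correlation of log2 signals across probe sets was 0.985 between the basal arrays and 0.99 between the thrombin arrays, against 0.913 to 0.941 with arrays of the other experiments. Both stimulated TRAP pairs were split. Saa3, an acute-phase protein, read 222.5 and 22.8 on the TRAP arrays and 20.3 and 237.8 on those of TRAP after pertussis toxin. The basal arrays of those experiments read 18.1 and 15.9 before TRAP and 420.9 and 374.6 before TRAP after pertussis toxin, so 1 array of each stimulated pair read high and 1 low. Whether labels were exchanged between the stimulated TRAP groups was not tested; the labels were used as given, and every TRAP value and every difference from TRAP depends on them. In the thrombin experiment Saa3 lay between 33 and 39.8 on all 4 arrays. Because all 12 arrays shared 1 estimate of the spread, values without the stimulated TRAP arrays are given where they alter a call. Contractile smooth muscle genes were bright, with a summed signal of 25472.3 to 28035.4 on the basal arrays and 28625.6 to 31720.9 after thrombin over the 20 members on the array. The summed signal of 12 leukocyte markers was 617.3 to 709 on the basal arrays and 641.4 to 648.3 after thrombin, and that of 10 endothelial markers was 222.8 to 269.1 and 185.8 to 258.8. Markers of adventitial fibroblasts were bright, 10 in number, and summed to 7733.4 and 7964.7 on the basal arrays and to 8105.8 and 7789.6 after thrombin, with overlap between the groups. The 8 adipocyte markers summed to 172.6 to 196.9 and 155.3 to 179.6. Schwann and neural markers, 8 in number, summed to 480 and 496.8 on the basal arrays and to 395.3 and 401.3 after thrombin, with no call among the 3 tested. No marker of another cell type was called. Most of the leukocyte sum came from the 2 tested members, Cd14 and Csf1r, and most of the endothelial sum from Tek and Egfl7. Among the dimmest were Vwf of endothelium, at 1.4 to 2.6, and Itgam of leukocytes, at 1.7 to 2.1 over the 4 arrays. The part of such cells in the results was not tested. In bulk RNA, fewer cells of a type and less RNA per cell cannot be told apart.

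After thrombin more genes rose than fell by at least 2-fold, with Serpinb2, Fosl1, Egr2, Ptgs2 and Dusp5 at the head of the rises and Bambi of the falls. Among 9906 genes, each represented by its brightest probe set, 294 rose (2.97% of those tested) and 263 fell (2.65%), 5.62% in all, at an adjusted p under 0.05 by limma with Benjamini-Hochberg adjustment. A change of at least 2-fold was found for 85 of the genes that rose and 26 of those that fell, and a change of at least 4-fold for 18 and 1. Across all 18625 probe sets tested, 490 rose (2.63%) and 392 fell (2.1%). With each array centred on the median of its tested probe sets the split was 608 against 261. The number called rested on single arrays: 882 in all, 409 without basal replicate 1, 342 without thrombin replicate 1, 357 without thrombin replicate 2 and 918 without basal replicate 2. Of 227 further probe sets of 171 called genes, 204 had a change of the same sign, 69 were called with that sign and 0 with the other. The further probe set was not called for Srf (log2 change 0.52), Id2 (-0.48), Cdkn1b (-0.22), Sesn1 (-0.36) and Tnfaip6 (0.43), among others. The median log2 change of all genes was -0.06. Counts of called members in the gene lists below are to be read beside the shares of all genes, 2.97% up and 2.65% down. A single call in a short list does not set that list apart from them. Both thrombin arrays lay above both basal arrays for 17.7% of genes and below them for 33.3%. The groups did not overlap for any of the 557 called genes, so a lack of overlap adds nothing to a call. All log2 changes are on the log2(signal + 16) scale, which understates the change of dim genes, and the number of arrays limits their precision. Probe sets differ in brightness, so signals are compared between arrays and not between genes.

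**Figure D1:**
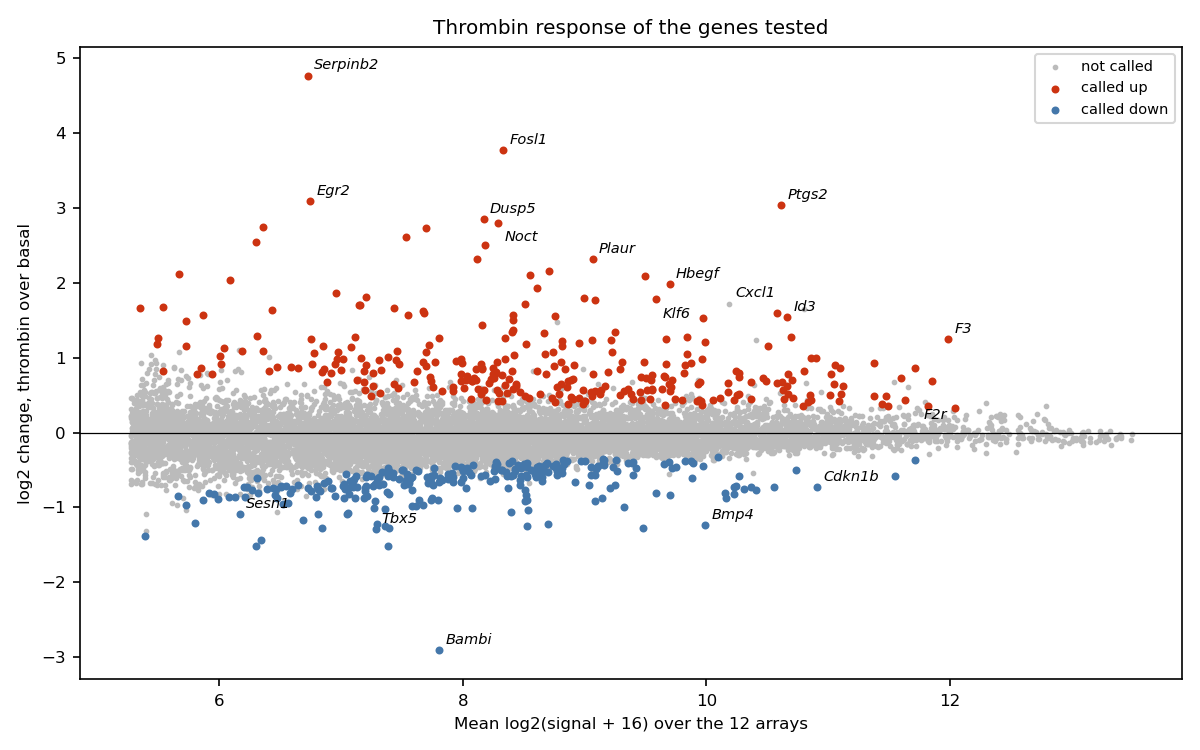
Log2 change of each of 9906 genes after thrombin (vertical axis, thrombin minus basal, log2 of signal + 16) against its mean log2 level over the 12 arrays (horizontal axis), with genes that rose in red (294) and genes that fell in blue (263). The rises reach further from 0 than the falls: 18 genes rose and 1 fell by at least 4-fold.

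The receptors and G proteins that receive the thrombin signal did not pass the test. F2r, the receptor PAR1 that thrombin cleaves, read 3606.3 and 3313.5 on the basal arrays and 3833.3 and 3571 after thrombin. The groups overlapped, and the log2 change was 0.10 ± 0.09 (SE; n = 2 arrays a group; adjusted p = 0.655). F2rl1, the protease-activated receptor PAR2, read 193.8 and 135.7 before and 240.2 and 271.5 after thrombin (log2 change 0.61, adjusted p = 0.137). Transcripts for F2rl2 and F2rl3, PAR3 and PAR4, were too dim to test, with 20.8 and 23.7 against 46.5 and 28 for F2rl2 and no signal above 8.8 for F2rl3. Gnaq and Gna12, G protein alpha subunits, had log2 changes of -0.02 and -0.06. Procr, the endothelial protein C receptor, had a log2 change of 0.56 (adjusted p = 0.181). Of 20 receptors, G proteins and their regulators tested, limma called 0, beside 5.62% of all genes. At an unadjusted p under 0.05, 3 were higher and 1 lower, beside 770 higher and 1261 lower among all 9906 genes.

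Immediate-early transcription factors were among the strongest rises. Of 15 Egr, Nr4a and other serum-response factors, 9 rose and 0 fell, with a median log2 change of 1.27. Egr2, a zinc-finger factor, read 46.6 and 65.6 on the basal arrays and 624.6 and 563.9 after thrombin. It therefore stood far above both basal arrays on both thrombin arrays, with a log2 change of 3.09 ± 0.20 (SE; adjusted p = 1.19e-06). Egr1, of the same family, read 1076.2 and 1041.1 before and 3223.4 and 3259.5 after thrombin (log2 change 1.60 ± 0.11). Nr4a1, an orphan nuclear receptor, went from 68.5 and 69.7 to 503.9 and 504.3 (log2 change 2.61 ± 0.24, adjusted p = 2.6e-05). Ier2, an immediate-early nuclear protein, read 358.6 and 396.6 before and 1649.4 and 1661.7 after, with no overlap (log2 change 2.09). Arc, known from synapses, read 26.3 and 43.9 before and 352.1 and 293.2 after (log2 change 2.74, adjusted p = 9.25e-06). Csrnp1, a nuclear protein, read 250.9 and 303.1 before and 1010.9 and 1191 after (log2 change 1.93). 3 further called members were named after their values were seen. Srf itself read 704.1 and 862.8 before and 1931 and 1898.4 after thrombin, so that both thrombin arrays lay well above the basal pair (log2 change 1.28 ± 0.11, adjusted p = 1.35e-05). Ier5, another immediate-early gene, had a log2 change of 0.81, and Nr4a3 one of 1.27 (adjusted p = 0.0451). Nr4a3 lost its call on leaving out any 1 of the 4 arrays (adjusted p 0.112 to 0.272). Ier3 read 2822.3 and 2861 before and 4535.8 and 4569.9 after but was not called (adjusted p = 0.0847).

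The AP-1 family, dimers of Fos, Jun, Atf and Maf proteins, rose in some members only. Of 13 tested, 6 rose and 0 fell, with a median log2 change of 0.54. Fosl1, which encodes Fra-1, read 127.8 and 109.8 on the basal arrays and 1928.7 and 1727.7 after thrombin. Its log2 change of 3.78 ± 0.25 (adjusted p = 1.16e-06) was the second largest rise of all genes. Fosb read 96.1 and 67.3 before and 494.2 and 604.4 after (log2 change 2.54 ± 0.33). Junb, a Jun partner, read 344.9 and 323.2 before and 1281.2 and 1131.3 after (log2 change 1.80). Atf3, a stress-responsive member, went from 107.8 and 77.5 to 195.2 and 227, and Maff, a small Maf protein, from 153.4 and 166.2 to 320.9 and 310.5. Their log2 changes were 1.07 and 0.92, and the arrays of the groups did not overlap. Mafk, named after its values were seen, had a log2 change of 0.54 (adjusted p = 0.0123) and lost its call on leaving out any array but basal replicate 2 (adjusted p 0.0831 to 0.112). The founding members Fos and Jun, also named after their values were seen, did not pass. Fos read 338.5 and 313 before and 371.3 and 381.1 after (log2 change 0.20 ± 0.16, adjusted p = 0.58). Jun read 738.4 and 774.6 before and 792.8 and 808.2 after (log2 change 0.08 ± 0.12, adjusted p = 0.799). Fosl2, Jund and Maf had log2 changes of 0.68, 0.45 and -0.55 and were not called.

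**Figure D2:**
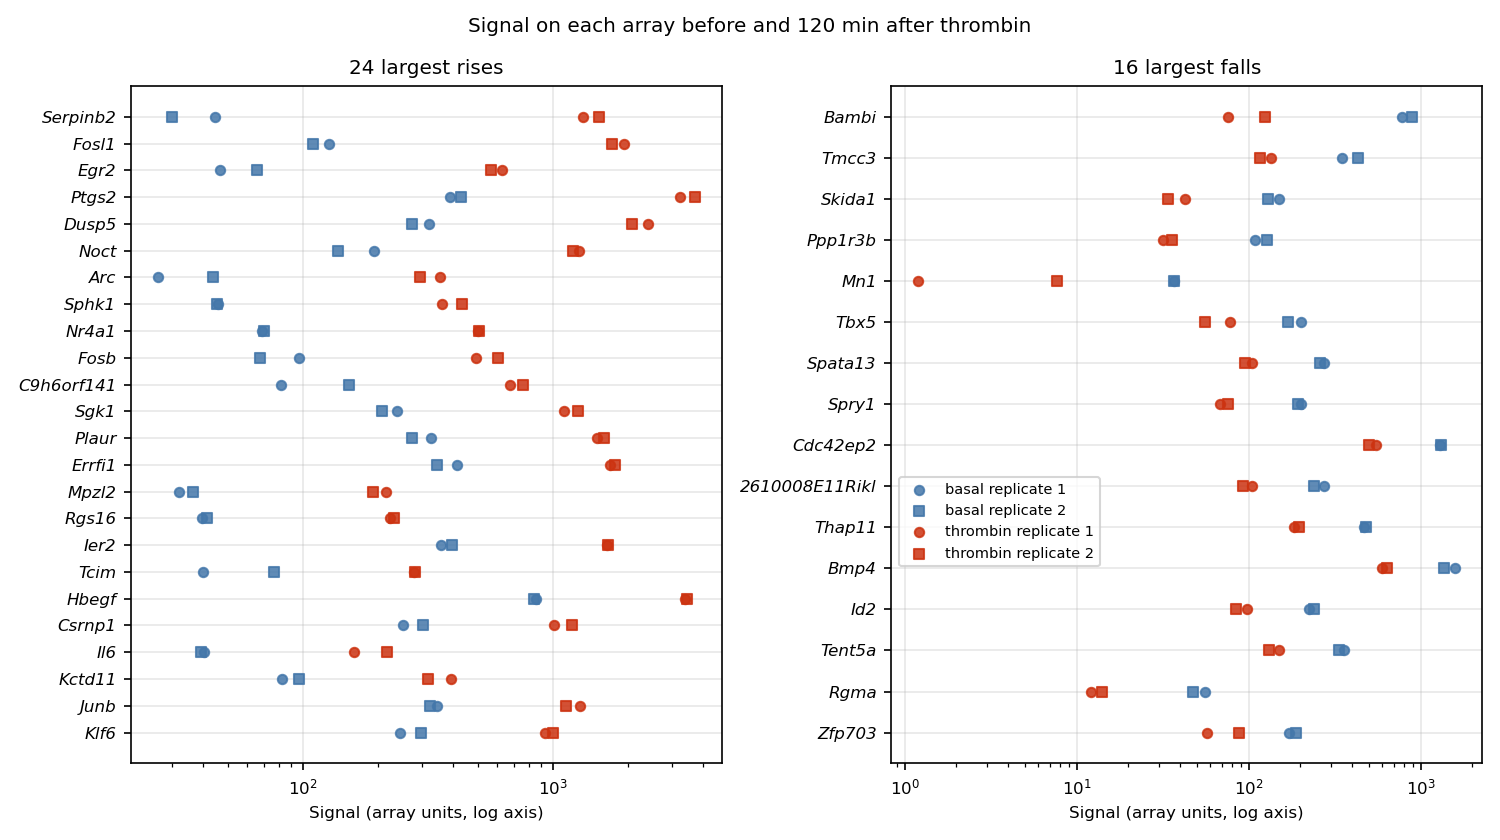
Signal on each of the 4 arrays (horizontal log axis) for the 24 genes with the largest rises (left) and the 16 with the largest falls (right). Blue is basal and red thrombin, circles are replicate 1 and squares replicate 2. The genes were drawn from called genes whose thrombin arrays lie beyond both basal arrays, so that separation is part of the choice. Examples are Serpinb2 at 44.7 and 30 against 1321.1 and 1530.8 and Mn1 at 37 and 36.7 against 1.2 and 7.7.

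Promoters of genes that rose together are shown because the CArG box, the AP-1 site and the cyclic AMP response element are the elements through which SRF, AP-1 and CREB are known to act. The window was 250 bases before to 50 bases after the start of each gene in RefSeq, build GRCr8, and 7800 of the 9906 genes tested had exactly 1 promoter there. Both strands were searched. Of genes that rose by at least 2-fold, 65 had a promoter, and 7 of these held a CArG box (10.8%), against 1.31% of all 7800 and 0.481% of the 208 genes that fell. The following are the 7, each written 5′ to 3′ on the strand of the gene with each CArG box that lies whole in the stretch shown in capitals; the whole 300-base window is given for Egr2 and 40 bases for the others.
Egr2: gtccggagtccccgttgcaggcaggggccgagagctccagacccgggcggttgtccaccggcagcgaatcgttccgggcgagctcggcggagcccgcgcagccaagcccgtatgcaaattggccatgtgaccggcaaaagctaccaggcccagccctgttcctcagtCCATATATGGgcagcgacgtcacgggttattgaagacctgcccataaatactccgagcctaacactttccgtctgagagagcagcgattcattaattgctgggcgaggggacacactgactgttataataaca
Dusp5: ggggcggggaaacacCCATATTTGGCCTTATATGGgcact
Klf6: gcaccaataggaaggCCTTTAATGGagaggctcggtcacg
Zfp36: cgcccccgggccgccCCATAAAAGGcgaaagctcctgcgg
Egr1: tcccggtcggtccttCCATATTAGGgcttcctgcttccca
Srf: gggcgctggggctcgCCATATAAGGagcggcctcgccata
Acta1: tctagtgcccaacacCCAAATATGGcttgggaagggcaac
They lie at chr20:21054392-21054691 on the minus strand for Egr2, chr1:262543677-262543716 on the plus strand for Dusp5, chr17:69458655-69458694 on the minus strand for Klf6 and chr1:92799116-92799155 on the minus strand for Zfp36. Those of Egr1, Srf and Acta1 lie at chr18:26736958-26736997 (plus), chr9:21923980-21924019 (plus) and chr19:68784264-68784303 (minus). The first base of the box stood at -83 from the start in Egr2, at -82 and -72 in Dusp5, at -201 in Klf6, at -32 in Zfp36 and at -94 in Acta1. Egr1 and Srf each held a second box, at -83 and -61, beside the first at -105 and -81.

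The cyclic AMP response element TGACGTCA, which shares no match with the AP-1 pattern TGANTCA (N is any base), was found in 7 of the 65 promoters (10.8%) and in 3.51% of all. It was also present in 6.73% of promoters of genes that fell. The AP-1 pattern was found in 9 of the 65 (13.8%), in 4.55% of all and in 5.29% of those that fell. Some of these promoters are shown as examples, with the motif in capitals and the strand of the gene. The AP-1 examples are not the largest rises throughout. Kctd11 (log2 change 1.81) and Olr1 (1.60) also held the pattern and rose more than Tnfaip6 (1.34), but are not shown.
Ier2, response element: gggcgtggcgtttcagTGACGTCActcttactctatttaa
Il6, response element: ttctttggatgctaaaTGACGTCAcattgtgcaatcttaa
Areg, response element: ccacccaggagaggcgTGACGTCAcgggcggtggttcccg
Serpinb2, AP-1 pattern: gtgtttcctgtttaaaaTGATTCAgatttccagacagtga
Plaur, AP-1 pattern: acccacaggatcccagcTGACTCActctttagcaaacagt
Tnfaip3, AP-1 pattern: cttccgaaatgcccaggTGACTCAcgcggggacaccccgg
Tnfaip6, AP-1 pattern: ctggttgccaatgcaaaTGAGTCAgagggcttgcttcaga
Their positions are chr19:40399291-40399330 (plus) for Ier2, chr4:5894714-5894753 (minus) for Il6 and chr14:17265709-17265748 (minus) for Areg. Those of Serpinb2, Plaur, Tnfaip3 and Tnfaip6 are chr13:24055815-24055854 (plus), chr1:89181263-89181302 (plus), chr1:15544138-15544177 (minus) and chr3:56911189-56911228 (plus). Among other motifs, TATAAA stood in 18.5% of promoters of the genes that rose by at least 2-fold and 6.26% of all, GCGNGGGCG (Egr) in 18.5% and 10.6%, the NF-kB site in 13.8% and 9.82%, and CCGGAAGT (ETS) in 3.08% and 9.21%. The FoxO pattern TGTTTAC stood in 4.33% of promoters of genes that fell and 2.42% of all. A match says only that these letters are present, and no test of these shares was made.

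**Figure D3:**
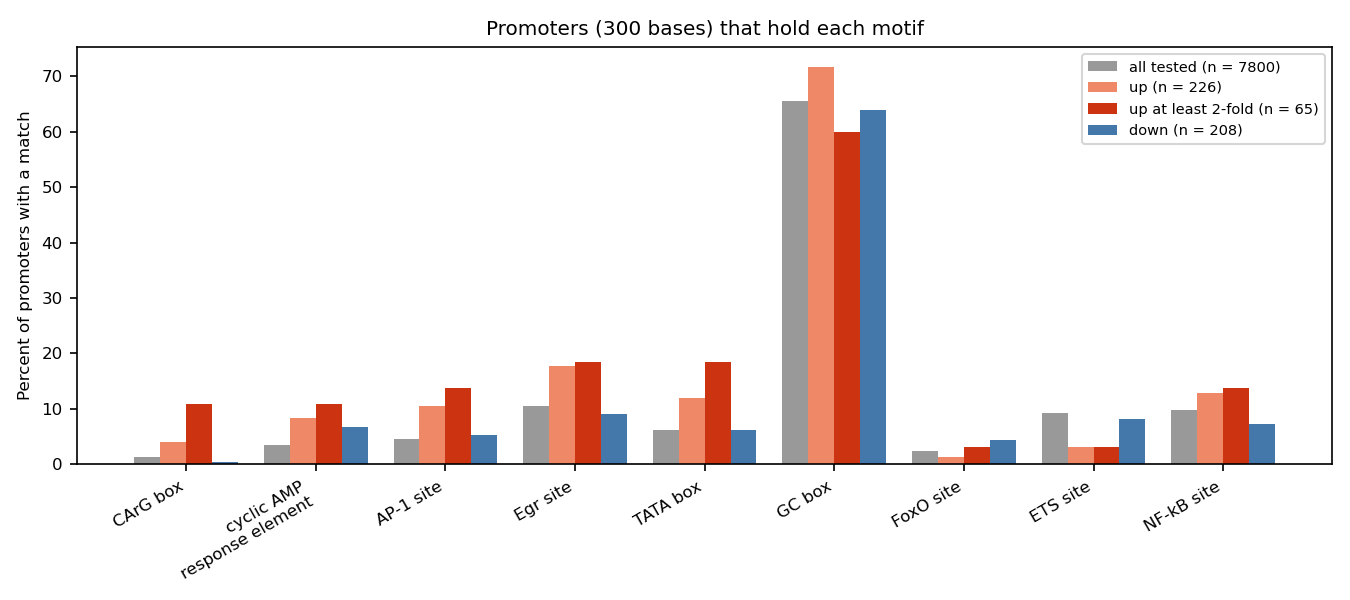
Percent of 300-base RefSeq promoters (vertical axis) that hold each motif (horizontal axis) on either strand, for all genes tested (7800), genes that rose (226), genes that rose by at least 2-fold (65) and genes that fell (208). The CArG box stands in 10.8% of the genes that rose by at least 2-fold and 1.31% of all genes, while the NF-kB site stands in 13.8% and 9.82%.

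Other regulators of transcription moved in both directions. Klf6, a Krüppel-like factor, read 245.4 and 296.9 on the basal arrays and 932.2 and 1005.3 after thrombin, far above with no overlap (log2 change 1.78 ± 0.15, adjusted p = 1.2e-05). Klf15, a relative found in quiescent muscle, fell from 123.1 and 154.5 to 54.2 and 60.7 (log2 change -1.07), and Klf7 rose by 0.81 on the log2 scale. The Krüppel-like factors counted 2 rises and 1 fall among 13. Klf15 lost its call on leaving out any array but basal replicate 1 (adjusted p 0.0543 to 0.09) and Klf7 without basal replicate 1 or thrombin replicate 2 (0.0623 to 0.118). Of 13 ETS factors, 3 rose and 0 fell. Ets1 read 660.8 and 671.9 before and 1578.2 and 1619.9 after (log2 change 1.24 ± 0.11), Elf1 had a log2 change of 0.94 and Ets2 one of 0.78, the last lost without thrombin replicate 2 (adjusted p = 0.0749). Myc, which drives growth genes, read 109.3 and 139.1 before and 283.1 and 274.3 after thrombin. Both thrombin arrays were near the same value and clear of the basal ones (log2 change 1.08 ± 0.12, adjusted p = 0.000114). In its network Mxi1, an antagonist of Myc, fell by 0.47 and Mlx, a partner protein, rose by 0.51 on the log2 scale; Mxi1 lost its call without any 1 array and Mlx on leaving out any array but basal replicate 2. Mxi1 had an adjusted p of 0.0525 without the stimulated TRAP arrays. The one call among 14 CREB, CREM and C/EBP factors was Nfil3, a bZIP repressor, at 119.4 and 89.8 before and 328.3 and 319.3 after thrombin (log2 change 1.51 ± 0.16). Cebpb, Creb5 and Cebpd had log2 changes of 0.39, 0.70 and -0.34 and were not called.

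Factors of embryonic patterning split, with 3 rises and 4 falls among 21 tested (14.3% and 19%, beside 2.97% and 2.65% of all genes). Tbx5, a T-box factor of heart and forelimb, read 201 and 168.6 on the basal arrays and 77.7 and 55.6 after thrombin (log2 change -1.29 ± 0.16, adjusted p = 0.00028). Hoxa5 fell from 538.7 and 491.2 to 265.6 and 263.8 and Tbx18, a marker of mural cell precursors, from 239.5 and 268.4 to 112.7 and 124.5. Hoxa5 had a log2 change of -0.92, and the adjusted p values were 0.000287 and 0.00746. Snai1, a repressor known from epithelial-mesenchymal transition, rose from 177.9 and 171.9 to 325.5 and 370.7 (log2 change 0.93), and Foxs1 by 0.78 on the log2 scale. Runx1 (0.93) and Sox4 (-0.83) were named after their values were seen. Tbx18 lost its call without thrombin replicate 1 (adjusted p = 0.0747), Runx1 without basal replicate 1 or thrombin replicate 2 (0.0951 to 0.103) and Sox4 on leaving out any array but basal replicate 1 (0.0634 to 0.0712). Osr2, Foxc1 and Gata6 had log2 changes of -1.08, -0.67 and -0.52 and were not called.

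Inhibitors of the MAP kinase and receptor kinase pathways rose in part. Dual-specificity phosphatases, which switch off MAP kinases, counted 3 rises and 0 falls among 8, with a median log2 change of 0.64. Dusp5, a nuclear ERK phosphatase, read 321 and 273.6 on the basal arrays and 2406.5 and 2083.1 after thrombin (log2 change 2.85 ± 0.31, adjusted p = 0.000123). Dusp6, its cytoplasmic relative, read 582.5 and 456.4 before and 1288.4 and 1176.9 after (log2 change 1.23). Dusp1 read 1709.1 and 2647.3 before and 4271.1 and 3540.9 after, a wide basal pair still below both thrombin arrays (log2 change 0.87). Its call was lost without basal replicate 1 or thrombin replicate 1 (adjusted p 0.165 to 0.188). Dusp10, at 32 and 35.3 against 70.8 and 75, missed the threshold (adjusted p = 0.0501) and passed it without the stimulated TRAP arrays (adjusted p = 0.0485). Dusp14 had a log2 change of 0.44 and was not called.

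Among 11 Sprouty, Spred and other receptor kinase inhibitors, 4 rose and 2 fell. Errfi1, an inhibitor of the EGF receptor, read 412.7 and 345.1 before and 1700.4 and 1767.6 after thrombin (log2 change 2.15 ± 0.19, adjusted p = 1.95e-05). Spry1 went the other way, from 201.1 and 192.9 to 67.8 and 75.7 (log2 change -1.28 ± 0.14, adjusted p = 0.000117). The Sprouty proteins, which restrain signalling from receptor kinases to ERK, thus differed among themselves. Spry4, named after its values were seen, read 178.1 and 156.5 before and 288.8 and 270.5 after (log2 change 0.69, adjusted p = 0.0488, and 0.0536 without the stimulated TRAP arrays). Spry2 read 331.5 and 682.2 before and 682.6 and 862.7 after and was not called (log2 change 0.67, adjusted p = 0.152). Socs5, a suppressor of cytokine signalling, rose by 0.82 and Spred3 by 0.83 on the log2 scale, and Lrig3 fell by 0.58. Spred3, Lrig3 and Spry4 each lost the call on leaving out any 1 of the 4 arrays (adjusted p 0.0896 to 0.239 over the 3 genes).

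Other damping circuits held a few calls each, beside 2.97% of all genes that rose and 2.65% that fell. RGS proteins, which shorten the active state of G proteins, counted 2 rises among 8. Rgs16 read 39.5 and 41.3 on the basal arrays and 222.4 and 232.1 after thrombin (log2 change 2.11 ± 0.20), and Rgs2 read 637.8 and 529.6 before and 1024 and 968.6 after (log2 change 0.76). Rgs2 lost its call on leaving out any array but basal replicate 1 (adjusted p 0.0882 to 0.128). Pde4b, which degrades cyclic AMP, was the one call among 17 cyclic AMP regulators, at 157.6 and 171.3 before and 85.3 and 55.1 after (log2 change -1.09). It lost the call on leaving out any array but thrombin replicate 1 (adjusted p 0.0677 to 0.173). Akap12, a scaffold of protein kinase A, read 1113.4 and 1086.9 before and 2586.9 and 2638.4 after thrombin. Its groups lay far apart, yet the adjusted p was 0.0531 over the 12 arrays and 7.23e-06 without the stimulated TRAP arrays.

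Regulators of NF-kB and of mRNA decay each counted 3 rises and 0 falls among 15. Tnfaip3, the A20 enzyme that restrains NF-kB, read 124.5 and 190.7 on the basal arrays and 509.4 and 535.9 after thrombin (log2 change 1.66 ± 0.25, adjusted p = 0.00153). Nfkbiz, a nuclear coactivator of the pathway, went from 132.4 and 138.4 to 391.2 and 587.6 (log2 change 1.71), and Nfkb2, a subunit, from 213.9 and 247.3 to 438 and 393.7 (0.81). The arrays of the groups did not overlap for any of these. Nfkbiz lost its call on leaving out any array but thrombin replicate 1 (adjusted p 0.053 to 0.154). Nfkbia, the inhibitor IκBα, read 361.7 and 336.9 before and 633.1 and 627.3 after; it was not called over 12 arrays (adjusted p = 0.215) but was without the stimulated TRAP arrays (0.000805). Zc3h12a, an RNase of inflammatory transcripts, had a log2 change of 0.83 and the same pattern (adjusted p 0.209 and 0.00725). Zfp36, tristetraprolin, which brings AU-rich mRNAs to decay, read 328.7 and 308.1 before and 1122.3 and 1131.4 after thrombin (log2 change 1.77 ± 0.10, adjusted p = 2.82e-07). Noct, which encodes nocturnin, read 193.4 and 138.2 before and 1277.3 and 1201.5 after (log2 change 2.80 ± 0.19). Zfp36l2, a relative of Zfp36, rose by 0.79 on the log2 scale and lost its call without thrombin replicate 2 (adjusted p = 0.0533).

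Secreted ligands formed the next group. Of 9 genes of the EGF receptor and its ligands, 2 rose and 0 fell. Hbegf, the heparin-binding ligand, read 859.9 and 843.6 on the basal arrays and 3371.9 and 3439.5 after thrombin (log2 change 1.98 ± 0.12, adjusted p = 5.34e-07). Areg, amphiregulin, read 23.1 and 21.2 before and 96.6 and 114.5 after (log2 change 1.67 ± 0.28, adjusted p = 0.00328). Egfr, their receptor, read 443.7 and 459.4 before and 549.7 and 536.9 after and was not called (adjusted p = 0.191), nor was Erbb2 (log2 change -0.42). Of 21 other growth factors, 2 rose and 1 fell. Inhba, the activin subunit, went from 529.1 and 644.3 to 1121.8 and 1240.5 (log2 change 0.99) and Vegfa from 881.5 and 892.6 to 1358 and 1443 (0.65). Fgf18 fell from 526.9 and 456 to 262 and 246.9 (log2 change -0.90). Vegfa lost its call without thrombin replicate 2 (adjusted p = 0.0618) and Fgf18 without basal replicate 1 or thrombin replicate 2 (0.0734 to 0.0811).

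Cytokines and their receptors counted 4 rises and 1 fall among 9. Il6 read 40.1 and 39 on the basal arrays and 160.7 and 216.6 after thrombin. Its log2 change was 1.87 ± 0.43 (adjusted p = 0.0245, and 6.71e-05 without the stimulated TRAP arrays), and leaving out any 1 of the 4 arrays ended the call (0.0796 to 0.179). Tnfrsf12a, the TWEAK receptor, went from 2653.3 and 2714.4 to 4598.8 and 4329, Il1rl1, the IL-33 receptor, from 977.5 and 819.6 to 1446.6 and 1648.6, and Tnfrsf11b, osteoprotegerin, from 490.1 and 492.2 to 844.5 and 858.9. Those 3 had log2 changes of 0.73, 0.78 and 0.77, and each pair of thrombin arrays lay above the basal pair. Il15, a cytokine for lymphocytes, fell from 367.9 and 314.6 to 164.2 and 145.5 (log2 change -1.06 ± 0.13, adjusted p = 0.000276). Lif, of the Il6 family, was left out by the filter on low values at 7.5 and 17.1 against 61.5 and 44.6, and was called in the fit with no filter (log2 change 1.30, adjusted p = 0.0234).

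Chemokines and adhesion molecules had 1 call among 11, Cd44, the hyaluronan receptor, which is no chemokine (log2 change 0.45, adjusted p = 0.0325, lost on leaving out any 1 of the 4 arrays with values of 0.0587 to 0.219). That 1 rise among 11 stands beside 2.97% of all genes. The neutrophil chemokine Cxcl1 read 1552.3 and 1412.1 on the basal arrays and 4953.9 and 4894.7 after thrombin. Ccl2, which attracts monocytes, read 564.1 and 727.7 before and 1896.3 and 2206.2 after, and the related Ccl7 133 and 149 before and 419.9 and 419.5 after. For all 3 the groups were well apart, with log2 changes of 1.72 ± 0.60, 1.65 ± 0.59 and 1.47 ± 0.69 and adjusted p values of 0.131, 0.149 and 0.279. Without the stimulated TRAP arrays the adjusted p values were 1.12e-06, 1.89e-05 and 1.4e-05.

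The genes of haemostasis and of the pericellular proteases held the largest rise. Serpinb2, the plasminogen activator inhibitor PAI-2, read 44.7 and 30 on the basal arrays and 1321.1 and 1530.8 after thrombin. Its log2 change was 4.77 ± 0.47 (adjusted p = 5.82e-05). Plaur, the urokinase receptor, read 324.2 and 273.1 before and 1502.9 and 1598.2 after (log2 change 2.32 ± 0.16), and F3, tissue factor, which starts coagulation, 2449.6 and 3199 before and 7114.7 and 6242.5 after (log2 change 1.25 ± 0.13). These were the 3 rises among 12 tested, with 0 falls. Of 19 matrix proteases, inhibitors and hyaluronan genes, 3 rose and 0 fell. Tnfaip6, a hyaluronan-binding protein of inflamed matrix, went from 235.4 and 224.1 to 612.4 and 600.5 (log2 change 1.34) and Adamts1, a proteoglycan protease, from 1071 and 995.1 to 1878.3 and 2096.5 (0.93). Timp1, a metalloprotease inhibitor, rose by 0.44 on the log2 scale, a call lost on leaving out any 1 of the 4 arrays (adjusted p 0.0747 to 0.281). Has2, a hyaluronan synthase, read 22.5 and 18.6 before and 52.1 and 49.8 after and was not called (adjusted p = 0.0517).

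Among lipid mediator and vasoactive genes Ptgs2, Sphk1 and Edn1 rose and a pair of lysophosphatidic acid receptors fell. Ptgs2, cyclooxygenase-2, read 389.4 and 428 on the basal arrays and 3235.8 and 3696.2 after thrombin (log2 change 3.03 ± 0.12, adjusted p = 1.65e-08). It was the one call among 12 prostaglandin genes. Sphk1, the kinase that makes sphingosine-1-phosphate, read 45.6 and 45.5 before and 359.4 and 432.3 after (log2 change 2.74 ± 0.25, adjusted p = 3.01e-05). Its list of 12 held 1 rise and 2 falls, both of receptors for lysophosphatidic acid. Lpar6 went from 423 and 484.3 to 216.5 and 216.9 (log2 change -1.01 ± 0.13) and Lpar1 from 252.7 and 274.1 to 179.4 and 170.2 (-0.55), the second lost on leaving out any 1 of the 4 arrays (adjusted p 0.087 to 0.193). Lpar2 and Lpar3 were too dim to test, at 2 and 0.6 against 9.4 and 8.1 and at 23.2 and 15 against 15.4 and 12.8. Edn1, the vasoconstrictor endothelin-1, read 269 and 283.5 before and 722.2 and 712.3 after thrombin (log2 change 1.33 ± 0.19, adjusted p = 0.000934), the one call among 11 vasoactive genes.

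Genes of the BMP and TGF-beta pathways and the Id proteins held 4 rises and 4 falls among 25 tested. Bambi, a decoy receptor of the family, read 782.3 and 891.1 on the basal arrays and 75.7 and 123.8 after thrombin. Its log2 change of -2.91 ± 0.17 (adjusted p = 5.34e-07) was the only fall of at least 4-fold among the genes tested. Bmp4, a ligand, read 1589.5 and 1369 before and 595.8 and 640.4 after (log2 change -1.23 ± 0.20). The Id proteins, dominant-negative partners of basic helix-loop-helix factors, went in opposite directions. Id3 rose from 728.7 and 709 to 2139.7 and 2109.2 (log2 change 1.54 ± 0.10, adjusted p = 1.19e-06), while Id2 fell from 225.6 and 240.3 to 97.6 and 84.1 (-1.22 ± 0.18, adjusted p = 0.00104). Id1, named after its values were seen, read 284.7 and 275.2 before and 175.2 and 177.9 after (log2 change -0.62), and Id4 had a log2 change of -0.48 and was not called. Skil, a repressor of Smad proteins, rose by 0.50 on the log2 scale, and Smad7 (0.71) and Smad1 (0.37) were further calls named after their values were seen. Id1 and Smad7 lost the call on leaving out any array but basal replicate 2 (adjusted p 0.0635 to 0.126), Skil without thrombin replicate 1 (0.0755) and Smad1 on leaving out any 1 of the 4 arrays (0.0876 to 0.283). Smad1 had an adjusted p of 0.0566 without the stimulated TRAP arrays. Rgma, a BMP co-receptor outside the list, read 55.6 and 47.3 before and 12.2 and 14.1 after (log2 change -1.21), a call lost without basal replicate 1 (adjusted p = 0.0502). In the Notch pathway 0 of 12 rose and 2 fell. Hey2, a Notch target of arteries, went from 762.8 and 718.1 to 399.4 and 499.4 (log2 change -0.71), and Hes6 had a log2 change of -0.57. Hey2 lost its call without basal replicate 1 or thrombin replicate 1 (adjusted p 0.103 to 0.161) and Hes6 without basal replicate 2 or thrombin replicate 2 (0.0689 to 0.162).

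Genes tied to FoxO and growth arrest counted 6 falls among 21, against 2.65% of all genes, with a median log2 change of -0.31 beside -0.06 for all genes. Foxo3, the factor itself, read 345.4 and 249.6 on the basal arrays and 138.9 and 136.9 after thrombin (log2 change -1.01 ± 0.16). Sesn1, a stress-inducible inhibitor of mTORC1, went from 81.6 and 84.2 to 30.5 and 30.3 (log2 change -1.09) and Cdkn1b, the cyclin-dependent kinase inhibitor p27, from 1970.2 and 1965.8 to 1200.2 and 1158.1 (-0.73). Txnip, which inhibits thioredoxin and glucose uptake, read 1515.6 and 1392.3 before and 743.9 and 823.4 after (log2 change -0.88). In each case both thrombin arrays lay below both basal arrays, as for every called gene that fell. Ccng2 (-0.98) and Pik3ip1 (-0.84) were the other falls, named after their values were seen. The one rise in the list, Sgk1, encodes a kinase that phosphorylates FoxO proteins and is no arrest gene. It read 238.1 and 207.8 before and 1105 and 1256.5 after thrombin (log2 change 2.32 ± 0.28, adjusted p = 0.000249). Txnip lost its call without thrombin replicate 1 (adjusted p = 0.0561), Ccng2 on leaving out any array but basal replicate 1 (0.0543 to 0.0698) and Pik3ip1 on leaving out any 1 of the 4 arrays (0.0627 to 0.197). Among 18 G1 regulators and Gadd45 genes the one call was Cdkn2b, the inhibitor p15, at 199.1 and 224 before and 102.9 and 130.2 after (log2 change -0.79), which was also lost without any 1 array (0.0616 to 0.229). Clock genes counted 2 rises among 14 (14.3%, beside 2.97% of all genes). Per2 went from 198.7 and 169.2 to 360.1 and 336.4 (log2 change 0.87) and Bhlhe40 from 259.3 and 198.2 to 430.2 and 394.5 (0.82), the second lost without thrombin replicate 1 (adjusted p = 0.0738).

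**Figure D4:**
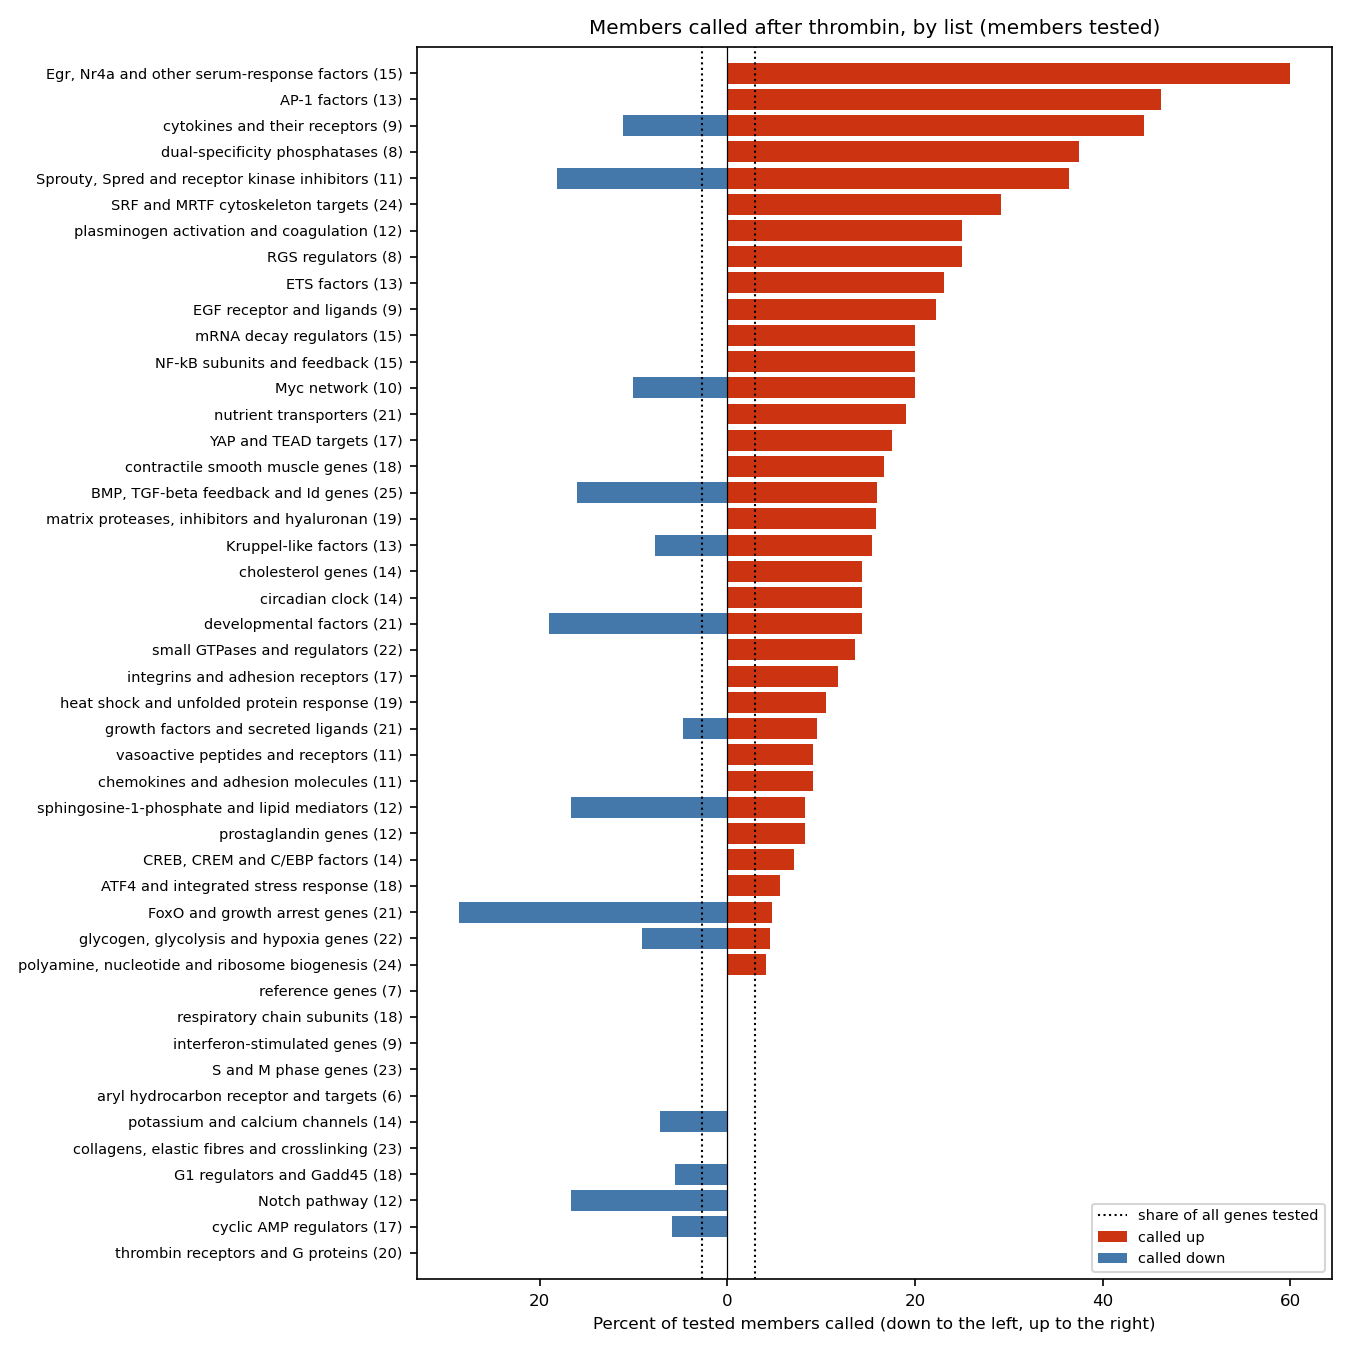
Percent of the tested members of each gene list (rows) that rose (red, to the right) or fell (blue, to the left) after thrombin, with the number tested beside each name and dotted lines at the share of all genes, 2.97% up and 2.65% down. Egr, Nr4a and other serum-response factors, with 9 rises among 15, and FoxO and growth arrest genes, with 6 falls among 21, extend far past the lines; 23 collagen and elastic fibre genes have 0 calls.

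Cytoskeletal genes that SRF and its MRTF cofactors are known to control rose by smaller amounts. Of 24 tested, 7 rose and 0 fell, with a median log2 change of 0.24, and both thrombin arrays lay above both basal arrays for 18 of the 24, against 17.7% of all genes. Fhl2, a LIM-domain protein, read 1363.9 and 1405.1 on the basal arrays and 2207 and 2309.8 after thrombin (log2 change 0.70 ± 0.08, adjusted p = 0.00021). Vasp, an actin-assembly factor, went from 1490.8 and 1438.1 to 2188.6 and 2152.8 (log2 change 0.56), and Filip1l from 237.6 and 262.1 to 393.7 and 381.3 (0.60). The formin Diaph1 and the focal adhesion protein Zyx had log2 changes of 0.84 and 0.43, and Enah (0.49) and Pdlim5 (0.45) were further calls named after their values were seen. Diaph1 lost its call on leaving out any array but basal replicate 2, Zyx and Enah on leaving out any but basal replicate 1 and Pdlim5 without any 1 array (adjusted p 0.054 to 0.269 over the 4 genes). With arrays centred on the median of all probe sets, Zyx, Enah and Pdlim5 were also not called (0.0671, 0.0628 and 0.0588).

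Contractile genes of smooth muscle counted 3 rises and 0 falls among 18, with a median log2 change of 0.31. Ldb3, a Z-disc protein of striated muscle, read 103.3 and 90.5 on the basal arrays and 209 and 203.9 after thrombin (log2 change 0.98 ± 0.17, adjusted p = 0.00346). Cnn1, calponin, read 991.7 and 821.9 before and 1398.1 and 1409.8 after (log2 change 0.63 ± 0.10). Csrp1, a LIM protein, rose by 0.35 on the log2 scale (adjusted p = 0.0492), but not without the stimulated TRAP arrays (0.0738) nor on leaving out any array but basal replicate 2 (0.173 to 0.307). The best-known members, named after their values were seen, were not called. Acta2, smooth muscle actin, read 4568.2 and 4863.6 before and 6436 and 5603.2 after (log2 change 0.35 ± 0.11, adjusted p = 0.105). Tagln, SM22, read 4472.7 and 3747 before and 5189.7 and 4215.9 after, with overlap between the groups (adjusted p = 0.576). Myh11, the smooth muscle myosin heavy chain, read 15.8 and 39.2 before and 55.1 and 62.4 after (log2 change 0.83, adjusted p = 0.0931, and 0.0224 without basal replicate 2).

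Targets of YAP and TEAD, adhesion receptors and small GTPases had a few calls each, beside 2.97% of all genes that rose. Ankrd1, a YAP target, read 3674 and 3232.3 on the basal arrays and 5898.9 and 4801.7 after thrombin (log2 change 0.62), one of 3 rises among 17 with Nuak2 (0.70) and Amotl2 (0.33). None of the 3 was called in every fit that left out an array: Ankrd1 lost its call on leaving out any but thrombin replicate 2 (adjusted p 0.0554 to 0.214) and the others without any 1 array, and Amotl2 also without the stimulated TRAP arrays (0.0898). Ccn1 and Ccn2, the matricellular genes most used as YAP readouts, had log2 changes of 0.52 and -0.04 and were not called. Itga5, the fibronectin receptor subunit, read 180.3 and 163.2 before and 303.3 and 294.9 after (log2 change 0.75 ± 0.13), and the other rise among 17 adhesion receptors was Sdc1 (0.45), lost on leaving out any array but basal replicate 1. Rnd1, a small GTPase, read 799.2 and 1057.6 before and 1543.6 and 2067.6 after (log2 change 0.95). Gem (0.92) and Rasl11b (0.58) were the other rises among 22 small GTPases and regulators. Rnd1 lost its call without basal replicate 1 or thrombin replicate 2 (adjusted p 0.187 to 0.205), and Gem and Rasl11b on leaving out any array but basal replicate 2.

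Metabolic and stress genes contributed scattered calls, beside 2.97% of all genes that rose and 2.65% that fell. Ppp1r3b, which targets protein phosphatase 1 to glycogen, read 109.4 and 128 on the basal arrays and 31.6 and 35.7 after thrombin (log2 change -1.44 ± 0.17, adjusted p = 0.000249). Vhl, the ubiquitin ligase subunit that degrades HIF, fell from 488.4 and 452.9 to 304.2 and 324.9 (log2 change -0.56), and Hk2, hexokinase 2, rose from 75.1 and 91.8 to 171.2 and 153.8 (0.85). These were the 1 rise and 2 falls among 22 genes of glycogen, glycolysis and hypoxia. Slc25a25, a mitochondrial carrier, went from 118.4 and 137.4 to 247.1 and 275.6 (log2 change 0.95), and Slc2a3, Slc20a1 and Slc7a1, carriers of glucose, phosphate and cationic amino acids, had log2 changes of 0.57, 0.44 and 0.41, making 4 rises among 21 transporters. Msmo1 and Insig1, of the sterol pathway, had log2 changes of 0.69 and 0.49, the 2 rises among 14 cholesterol genes. Ppp1r15a, which reverses phosphorylation of eIF2 alpha, read 440.6 and 384.5 before and 1028.7 and 933.3 after thrombin (log2 change 1.22 ± 0.13, adjusted p = 0.000104), the one call among 18 genes of the ATF4 response. Hspa1a, an inducible Hsp70, read 308.3 and 296.5 before and 573.7 and 569 after (log2 change 0.88), and with Dnajb1 (0.37) gave 2 rises among 19 heat shock and unfolded protein genes. Azin1, of polyamine metabolism, had a log2 change of 0.50 (1 call among 24, 4.17% up). Kcnk2, a potassium channel, had one of -0.37 (1 among 14, 7.14% down). Single calls of this kind do not set their lists apart from all genes. Leaving out 1 array ended the call of Vhl and of Msmo1 (thrombin replicate 1, adjusted p = 0.0634 and 0.064), of Insig1 (basal replicate 1 or thrombin replicate 1), of Slc7a1 (basal replicate 2 or thrombin replicate 2), of Slc20a1 (any but basal replicate 1), of Hk2, Slc2a3 and Azin1 (any but basal replicate 2), and of Dnajb1 and Kcnk2 (any of the 4). Kcnk2 had an adjusted p of 0.0777 without the stimulated TRAP arrays. In the limma fit of the 4 compared arrays alone, Insig1, Azin1, Slc20a1, Slc2a3, Slc7a1, Dnajb1 and Kcnk2 were also not called (adjusted p 0.0639 to 0.36).

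Several programmes had no call after 120 min, beside 5.62% of all genes called in either direction. At that share a short list holds few calls or none, so 0 calls does not set these lists apart. The unadjusted counts below stand beside 770 genes higher and 1261 lower at an unadjusted p under 0.05 among all 9906. Limma called 0 of 23 genes of S and M phase, with 0 at an unadjusted p under 0.05, and 0 of 23 collagen and elastic fibre genes, with 1 higher and 0 lower at an unadjusted p under 0.05. The same holds for 18 respiratory chain subunits (0 called; 0 higher and 3 lower unadjusted), for 9 interferon-stimulated genes (0 called; 0 and 1) and for 7 reference genes (0 called; 1 and 1). The median log2 change was -0.17 for S and M phase genes and -0.05 for collagens. Col1a1, the collagen I chain, had a log2 change of -0.09 (adjusted p = 0.853).

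The aryl hydrocarbon receptor and its targets had 0 calls among the 6 tested, beside 5.62% of all genes. At an unadjusted p under 0.05, 0 were higher and 1 lower, beside 770 higher and 1261 lower among all 9906 genes. However, the filter on low values left out the best-known targets of the receptor. Cyp1a1, which oxidises aromatic hydrocarbons, read 134.4 and 132.5 on the basal arrays and 17.7 and 19.9 after thrombin. Aldh3a1, an aldehyde dehydrogenase, read 61.5 and 76.3 before and 19.7 and 13.6 after. Both were clearly lower on the thrombin arrays, and in the fit with no filter on low values their log2 changes were -2.10 ± 0.22 (adjusted p = 0.000228) and -1.38 ± 0.27 (adjusted p = 0.0196). Cyp1b1, a target that was tested, read 4340.9 and 3831.4 before and 3592.6 and 3188.7 after (log2 change -0.27, adjusted p = 0.175), and Ahr, the receptor, had a log2 change of -0.01. Of the 170 list members that the filter left out, the fit with no filter called 1 up, Lif, and 2 down, Cyp1a1 and Aldh3a1.

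Of the 24 largest rises 20, and of the 16 largest falls 6, belonged to one of these lists. The 4 other rises were C9h6orf141, Mpzl2, Tcim and Kctd11. C9h6orf141, an open reading frame, read 82 and 152.9 on the basal arrays and 673.7 and 761 after thrombin (log2 change 2.51 ± 0.26). Mpzl2, an adhesion protein of the immunoglobulin family, went from 31.9 and 36.5 to 214.7 and 190.4 (log2 change 2.12), Tcim from 40 and 76.8 to 277.2 and 280.9 (2.03) and Kctd11, a cullin-3 adaptor, from 82.3 and 96.2 to 390.5 and 317.1 (1.81). The falls outside the lists were of mixed kind. Tmcc3, a coiled-coil protein of the endoplasmic reticulum, read 348.1 and 435.6 before and 134.3 and 117.1 after (log2 change -1.52 ± 0.16, adjusted p = 0.000109). Cdc42ep2, an effector of the GTPase Cdc42, went from 1290.8 and 1311.5 to 554.3 and 502.3 (log2 change -1.28 ± 0.22) and Spata13, a guanine nucleotide exchange factor, from 272.7 and 259.3 to 104.6 and 95.5 (-1.28). Tent5a, a poly(A) polymerase, read 358.2 and 336.1 before and 149.4 and 130.7 after (log2 change -1.22). The DNA-binding proteins Thap11 and Zfp703 had log2 changes of -1.25 and -1.17, and Skida1 and 2610008E11Rikl changes of -1.52 and -1.25. Mn1, a transcriptional coactivator, read 37 and 36.7 before and 1.2 and 7.7 after (log2 change -1.39), and its call was lost without thrombin replicate 1 (adjusted p = 0.0613).

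The response was set beside that to TRAP, a peptide that activates protease-activated receptors without proteolysis, given at another kind of dose (25 µM against 2 U/ml) for the same 120 min and compared with its own basal arrays. The doses are not matched, and each treatment belonged to its own experiment. The basal arrays already differed between experiments. Pearson's correlation with the basal TRAP arrays was 0.923 and 0.925 for the basal thrombin arrays. It was 0.985 and 0.982 for the basal arrays of TRAP after pertussis toxin. A difference is therefore one between these treatments as given in these experiments, and treatment and experiment cannot be told apart. All 24 of the largest rises after thrombin had a positive log2 change after TRAP, of which 19 were called, and 15 of the 16 largest falls had a negative one, of which 5 were called. Over all probe sets, the interaction contrast called 99, and over genes 51 (0.515% of those tested). Of the 40 genes, 9 passed the test of the difference, with 5 higher and 4 lower after thrombin. The 40 were chosen for large thrombin changes on arrays that also enter the difference. That choice favours larger changes after thrombin, so neither the share of 9 nor its directions describe genes at large.

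For Klf6 the log2 change was 1.78 after thrombin and 0.13 (adjusted p = 0.735) after TRAP, a difference of 1.65 ± 0.21 (SE; adjusted p = 0.00328) that was kept under every alternative run, including without either TRAP array. Ptgs2 rose with both, by 3.03 after thrombin and 1.82 after TRAP on the log2 scale, and the difference of 1.22 ± 0.17 (adjusted p = 0.00506) was kept on leaving out any 1 array. Bambi fell by 2.91 after thrombin and by 1.44 after TRAP, a difference of -1.47 ± 0.24 (adjusted p = 0.0139) lost without basal TRAP replicate 1 or 2 (0.0829 and 0.0589). Cdc42ep2 fell after thrombin by 1.28 and had a log2 change of 0.53 (adjusted p = 0.234) after TRAP, a difference of -1.80 ± 0.30 (adjusted p = 0.0171). That difference was kept without either TRAP array and lost without basal replicate 1, thrombin replicate 1 or 2, or basal TRAP replicate 1 (0.0614 to 0.102). Without the intensity trend 7 of the 9 differences were not called, among them those of Ptgs2 (adjusted p = 0.0567), Bambi (0.0666) and Cdc42ep2 (0.101), while Klf6 and Spry1 kept theirs (0.0443 and 0.0257). The differences of Spry1 (-1.17 ± 0.20), Tmcc3 (-1.35 ± 0.23), Arc (1.78 ± 0.31), Sphk1 (1.79 ± 0.36) and Csrnp1 (1.22 ± 0.22) had adjusted p values of 0.0171, 0.018, 0.0226, 0.0445 and 0.0226. Each of those 5 was lost on leaving out TRAP replicate 1, the array with high Saa3, among others, with adjusted p values of 0.0622, 0.0678, 0.0853, 0.141 and 0.0594. Some genes with large responses did not pass the test of the difference: Fosl1 had log2 changes of 3.78 and 3.49 after thrombin and TRAP, Noct 2.80 and 2.51, Plaur 2.32 and 1.94, and Hbegf 1.98 and 1.57. Serpinb2, at 4.77 and 1.75, also missed the threshold (difference 3.01, adjusted p = 0.0709), and Id2, at -1.22 and -1.95, had a difference of 0.73 that was not called (adjusted p = 0.291).

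**Figure D5:**
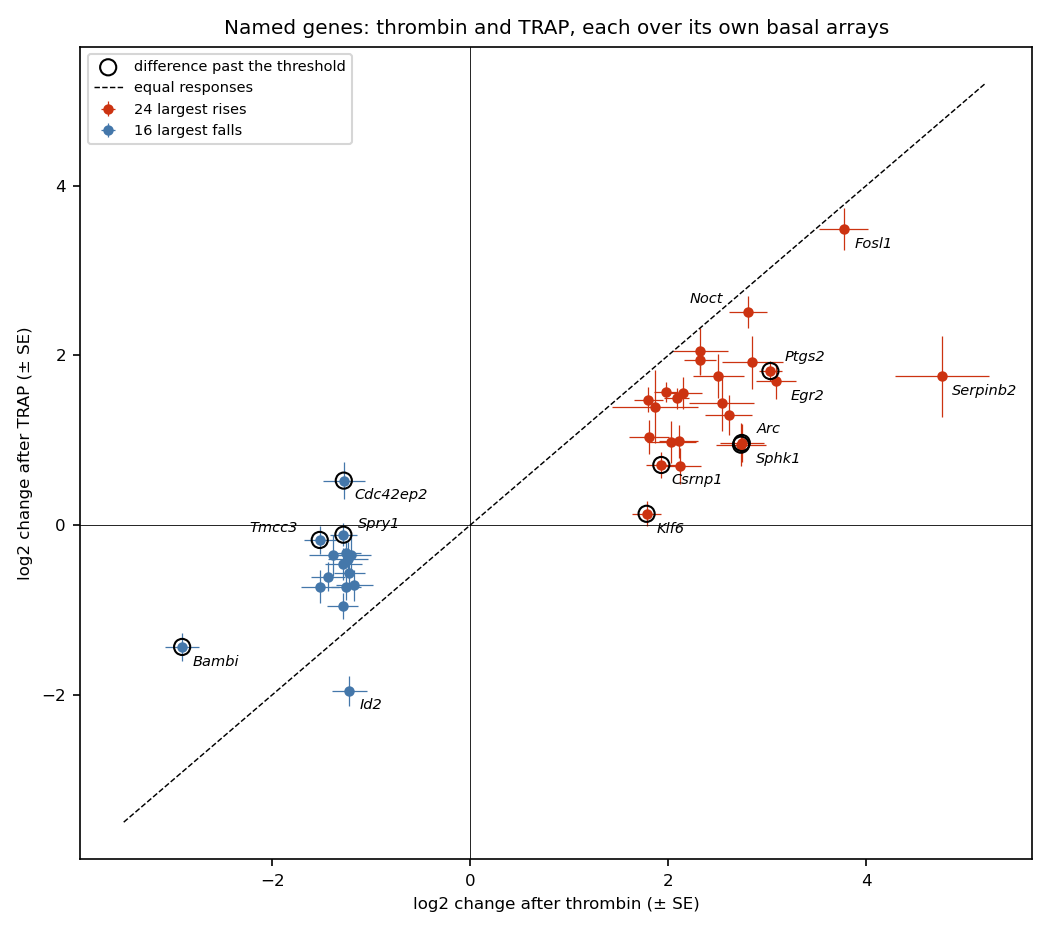
Log2 change after TRAP (vertical axis) against log2 change after thrombin (horizontal axis), with bars of 1 SE, for the 40 named genes with the largest changes after thrombin; ringed genes passed the test of the difference and the dashed line marks equal changes. Klf6, at 1.78 and 0.13, lies far below the line, and Fosl1, at 3.78 and 3.49, lies near it.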

How the data were processed

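The deposited values are linear intensities, 1 per probe set and array, made by the authors with GCOS 1.4 per the submitters' processing notes; their trimmed means near 200 in every array show a common scaling. The steps before that are not given in the sources used here. Of 31042 probe sets, after 57 control probe sets were left out, 20826 carried exactly 1 gene symbol in the platform annotation, 436 several and 9780 none. Symbols of 20758 were checked through their Entrez identifiers in RefSeq.

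Intensities were converted to log2(signal + 16), with no further normalization, and probe sets whose mean lay below the 40th percentile were left out, which kept 18625. A linear model of the 6 groups was fitted to all 12 arrays with limma 3.58.1 in R 4.3.3 (lmFit and eBayes with an intensity trend; 6 residual and 7.5 prior degrees of freedom), so that all groups shared 1 estimate of the spread. P-values were adjusted over all 18625 probe sets by Benjamini and Hochberg, with a threshold of 0.05, and "called" means past it. The thrombin and TRAP responses were compared by an interaction contrast. A gene is its brightest kept probe set. The code was checked on simulated data.

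Named were the 24 largest rises and 16 largest falls among called genes with non-overlapping arrays, the 4 protease-activated receptors, and from each gene list up to 5 called members by p and up to 3 others by size of change. Genes named beyond this rule are given as such. The experiment and the lists were chosen with earlier results of these data known. Detection calls were not used, so signals of dim genes are shown as deposited. Each result was recomputed with another pseudocount, filter or scaling, without the intensity trend, with fewer arrays in the fit, with a replicate block, and without each array in turn. Promoters are those of RefSeq, build GRCr8.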

Additional observations from a re-analysis of the deposited data

Results flagged for a closer look

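The responses of 9 of the 40 most changed genes to thrombin and to TRAP differed by the interaction contrast (log2 change after thrombin minus that after TRAP, limma). Of 40 genes compared, chosen for their thrombin response, 5 differences were positive and 4 negative. That choice favours larger changes after thrombin, because the same thrombin arrays enter the difference. Each treatment had its own experiment, so treatment and experiment cannot be told apart. The values were 1.65 for Klf6, 1.22 for Ptgs2, 1.78 for Arc, 1.79 for Sphk1 and 1.22 for Csrnp1. They were -1.47 for Bambi, -1.35 for Tmcc3, -1.17 for Spry1 and -1.80 for Cdc42ep2. Cdc42ep2 was the one of the 9 whose log2 change had opposite signs, -1.28 after thrombin and 0.53 after TRAP, and the latter was not called. The TRAP arrays differed from each other in Saa3 (222.5 and 22.8) and in Lcn2, an iron-binding acute-phase protein (293.9 and 20.2), and the basal arrays of TRAP read 32.8 and 23.5 for Lcn2. Lcn2 read 509.7 and 565.6 on the basal arrays of the thrombin experiment and 462 and 433.1 after thrombin. The basal arrays of TRAP after pertussis toxin read 420.9 and 374.6 for Saa3 and 360.2 and 275.2 for Lcn2, and the stimulated arrays 20.3 and 237.8 for Saa3. Whether labels of the stimulated TRAP groups were exchanged was not tested, and the differences from TRAP depend on them. The part of this split in the differences was not tested beyond leaving out each TRAP array. Without TRAP replicate 1, Arc, Sphk1, Csrnp1, Tmcc3 and Spry1 were not called, and without TRAP replicate 2 Csrnp1 was not called (adjusted p = 0.065); Klf6, Ptgs2, Bambi and Cdc42ep2 were called without either.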

How the results depend on the processing

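No called probe set changed sign under any alternative. Of 187 called genes looked at, 114 kept the call on leaving out each of the 4 arrays in turn and 148 under every other alternative; 14 lost it without 1 of the 4, 13 without 2 and 46 without 3 or 4. Among the 24 largest rises 23, and among the 16 largest falls 14, kept it on leaving out each array. Leaving out 1 array gave 342 to 918 calls (main value 882), 227 to 596 rises, 95 to 322 falls, 61 to 89 rises (main value 95) and 15 to 21 falls (29) among genes of the lists, and 33 to 140 differences from TRAP (99). Fewer falls than the main 392 were also found with no filter on low values (239), with arrays centred on the median of the tested probe sets (261) and with the 4 compared arrays alone (216, of 576 calls). Without the intensity trend 23 differences from TRAP were called. Centring on the median of all probe sets, added after the data were seen, gave 685 calls and quantile normalization 741. In the fit with the replicate number as a block within each experiment, 859 probe sets were called, 515 up and 344 down; the correlations of same-numbered deviations were 0.134, 0.104 and 0.0217, so the numbers were not shown to pair the arrays. Among the calls lost in the limma fit of the 4 compared arrays alone were Dusp1, Cd44, Timp1 and Sdc1 (adjusted p 0.0512 to 0.0975). The causes of these shifts were not tested. With 2 arrays a group the precision was limited: the median SE was 0.14 on the log2 scale.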

Other observations

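The genes in this section were chosen after their values were seen. Among the called genes outside the lists were 5 with known roles in striated muscle; no count of all such genes was made. Acta1, skeletal muscle actin, read 140.4 and 153.2 on the basal arrays and 353.3 and 347 after thrombin (log2 change 1.17, adjusted p = 0.000565). Klhl41, a sarcomere-associated Kelch protein, went from 34.1 and 50.1 to 168.3 and 174.7 (log2 change 1.70, adjusted p = 0.000276), and its relative Klhl40 from 17.3 and 7.9 to 51.6 and 52.3 (1.27, adjusted p = 0.0049). Flnc, the muscle filamin, read 1213.1 and 1391.8 before and 3224.3 and 3119.1 after (log2 change 1.28), and Fhl3, a LIM protein, 295.7 and 318.6 before and 735.1 and 755.9 after (1.24). For all 5 genes both thrombin arrays lay above both basal arrays, as for every called gene that rose.

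Poly(A) polymerases of the Tent5 family moved in opposite directions by their brightest probe sets. Tent5b rose from 335.1 and 274.6 to 618 and 616.6 (log2 change 0.99 ± 0.12, adjusted p = 0.000249). Tent5c fell from 99.9 and 77.5 to 35.5 and 38.8 (log2 change -0.97 ± 0.22, adjusted p = 0.024), as Tent5a did by 1.22. Further probe sets of Tent5a had log2 changes of -0.32 and -0.57 and were not called (adjusted p = 0.763 and 0.0925). A further probe set of Tent5b was called (log2 change 0.66, adjusted p = 0.0158). Tent5c lost its call on leaving out any array but basal replicate 2 (adjusted p 0.114 to 0.192).

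Zinc-finger genes with a numbered Zfp symbol, Zfp36 and its relatives left out, counted 5 rises and 12 falls among 187 tested. These shares of 2.67% and 6.42% stand beside 2.97% and 2.65% of all genes, so the rises are near the share of all genes. The median log2 change was -0.16. Both thrombin arrays lay below both basal arrays for 93 of them and above for 23, against 33.3% and 17.7% of all genes. Zfp688 read 219.1 and 210.2 before and 105.9 and 89.1 after (log2 change -1.03), while Zfp697 read 248.5 and 184.1 before and 710.5 and 622.6 after (1.57).

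Secreted and surface proteins outside the lists also rose by at least 2-fold. Pvr, the poliovirus receptor, read 891 and 980.4 before and 2689.5 and 2744.4 after thrombin (log2 change 1.52), Epha2, an ephrin receptor, 469.8 and 357.7 before and 1299.1 and 1186.7 after (1.56), and Flt1, a VEGF receptor, 80.6 and 89.1 before and 247.6 and 266.1 after (1.44). A further probe set of Flt1 was called with a log2 change of 0.98 and another was not (0.18). Csf3, the granulocyte growth factor, went from 26.8 and 43.5 to 143.1 and 146.9 (log2 change 1.67) and lost its call on leaving out any array but basal replicate 2 (adjusted p 0.0888 to 0.131).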
